A study of Homo sapiens with 4 samples.

Results

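The genes described here encode 48 proteins of the lysosome or its control: proteases, glycosidases, sulfatases, lipid enzymes with their activators and carriers, membrane proteins, the acid phosphatase ACP2 and the transcription factor TFEB. They were taken by gene symbol through the platform annotation of the arrays. A member was tested where one of its probes was detected, meaning that its detection p-value lay below 0.01 on 2 or more of the 4 arrays. Of the 48 members, 46 had a named probe and 43 were tested, among 10673 named genes tested in all. CTSO and CTSS, both cysteine cathepsins, and TFEB had a probe that was not above background on any array. AGA and CD63 had no probe named here. Of the 43 members 41 were detected on all 4 arrays, while IDUA and SMPD1, the members nearest the threshold, were detected on 3.

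The samples were total RNA of a prostate cancer cell line that the labels spell DU154, with 2 arrays of the group labelled mH2A1.2_KO and 2 arrays of the wild type group. Per the labels, the first group lacks mH2A1.2, one of the splice forms of the histone macroH2A1, and the method of its removal is not stated in these sources. The comparison asks which genes differ in cells without this form. No label tells whether the 2 arrays of a group came from separate cultures or, for the mH2A1.2_KO cells, from 1 clone or several, so a p-value here reflects no more than the spread among these 4 arrays, which may be technical.

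Lysosomes are acidic organelles that break down proteins, glycans, sulfated sugars and lipids delivered by endocytosis and autophagy. Most lumenal enzymes are tagged with mannose phosphate in the Golgi, carried to the lysosome by receptors and matured there, often by other lysosomal proteases. TFEB and its relatives bind an E-box in the promoters of many lysosomal genes. Cathepsins that leave tumour cells can also degrade extracellular matrix, and cathepsin K is best known as the collagenase of the osteoclast.

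Between 35.8% and 35.9% of raw probes were detected on the mH2A1.2_KO arrays and between 35.4% and 38.9% on the wild type arrays. The 2 deposited tables disagree on 2 arrays, since mH2A1.2_KO replicate 1 of the normalized table carries the name of wild type replicate 2 in the raw table, and the other way round. Groups here follow the normalized table. The brightest probe of MACROH2A1, the gene of this histone, measured 11.97 and 11.83 on the log2 scale in mH2A1.2_KO, against 13.02 and 12.91 in wild type (difference -1.07 ± 0.16, SE, limma adjusted p = 0.246), and -0.12 when arrays were grouped by the raw header. Other MACROH2A1 probes measured -1.02 ± 0.17 and 0.62 ± 0.24. All 6 epithelial markers were detected, with a summed signal of 16120 and 14590 in mH2A1.2_KO against 7172 and 7684 in wild type. None of the 5 luminal prostate markers with a probe was above background, KLK3 among them. Of 13 macrophage and osteoclast markers only CD14 and AIF1 were detected. Their summed signal was 524.8 and 416.8 in mH2A1.2_KO and 527 and 325.1 in wild type, while CSF1R, TYROBP and CALCR were not above background. The part of any of these markers in the results below was not tested.

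The lysosomal glycosidase GLB1 and the cysteine proteases CTSC and LGMN stood at least 2-fold lower in mH2A1.2_KO. The other tested members ran from -0.45 to 0.36 in log2 difference. Over all 43, these 3 included, 25 were lower and 18 higher, with a median of -0.042, against -0.011 over all 13786 features. The median absolute difference was 0.19 over the 43 members and 0.14 over all features. In the limma fit by group alone, none of the 43 passed the test after Benjamini-Hochberg adjustment over all features, and neither did any other feature (0%). A fit with a replicate block did call GLB1, CTSC and LGMN, but the labels do not say that replicate numbers pair the arrays. At an unadjusted p under 0.05 in the fit by group alone, 4 members were lower and 0 higher. Of all features 3.35% were lower, 4.37% higher and 7.73% either. The 3 members at least 2-fold lower were 6.98% of those tested, beside 0.210% of all features, and 0 members were at least 2-fold higher, beside 0.580%. GLB1, CTSC and LGMN were already known to be among the lowest genes of this comparison when the members were chosen, so these counts and medians are no independent evidence about lysosomal genes. In RNA of whole cultures, fewer cells that express a gene and less of its RNA per cell cannot be told apart.

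**Figure D1:**
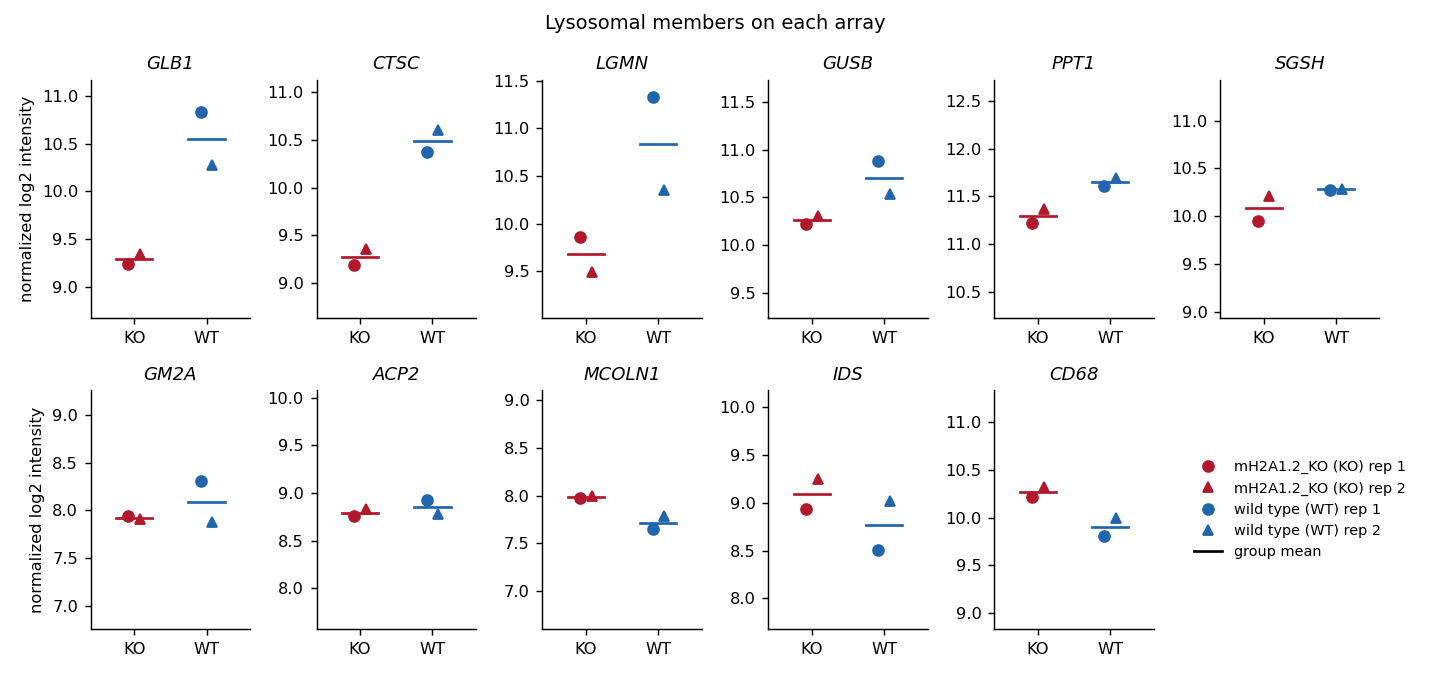
Normalized log2 intensity of 11 lysosomal members on each array (circle, replicate 1; triangle, replicate 2; line, group mean) and with mH2A1.2_KO left of wild type; every panel spans the same number of log2 units. The mH2A1.2_KO and wild type points are well apart for GLB1, CTSC and LGMN, and close or overlapping for GM2A, ACP2 and IDS.

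GLB1 encodes the lysosomal beta-galactosidase, which removes galactose from gangliosides and keratan sulfate and is the enzyme behind the senescence-associated galactosidase stain. It measured 9.23 and 9.34 in mH2A1.2_KO and 10.83 and 10.27 in wild type. Both mH2A1.2_KO arrays lay below both wild type arrays, and the 2 wild type arrays were themselves further apart. The log2 difference was -1.26 ± 0.22 (SE, 2 arrays per group), or 2.40-fold (limma adjusted p = 0.319). A second GLB1 probe, annotated to another transcript, measured 8.62 and 8.82 in mH2A1.2_KO against 10.19 and 9.69 in wild type, a difference of -1.22 ± 0.22, so both detected probes gave nearly the same size.

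CTSC encodes cathepsin C, or dipeptidyl peptidase I, which trims dipeptides from the amino end of proteins and activates the granule serine proteases of immune cells. It measured 9.19 and 9.35 in mH2A1.2_KO against 10.38 and 10.60 in wild type. Here the arrays of each group lay close together and the groups did not overlap. The log2 difference was -1.22 ± 0.17, or 2.33-fold, with a limma adjusted p of 0.231. The other 2 probes of the same transcript gave -1.21 ± 0.16 and -0.98 ± 0.19. The fourth probe, annotated to a shorter transcript, stayed below the detection threshold on both mH2A1.2_KO arrays. It passed the filter only through the wild type arrays, so its direction is no further support for a difference. Its means were 6.48 in mH2A1.2_KO and 6.78 in wild type (-0.30 ± 0.16, adjusted p = 0.78 in the limma fit of all detected probes).

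LGMN encodes legumain, an asparaginyl endopeptidase that cleaves and matures other lysosomal proteases. It measured 9.86 and 9.497 in mH2A1.2_KO against 11.32 and 10.36 in wild type. The groups did not overlap, but wild type replicate 1 stood well above wild type replicate 2. The log2 difference was -1.16 ± 0.33, or 2.24-fold (limma adjusted p = 0.483), and the second detected probe gave -1.22 ± 0.31. Without wild type replicate 2, limma called all 3 genes, with differences of -1.54 for GLB1, -1.11 for CTSC and -1.64 for LGMN and adjusted p-values of 0.016, 0.0368 and 0.016. Without wild type replicate 1 it called only CTSC (-1.33, adjusted p = 0.0312), and the difference was -0.99 for GLB1 and -0.68 for LGMN. Without either mH2A1.2_KO array it called none of them, with adjusted p-values of 0.512 or more. In these fits the lone array of a group is assumed to vary like the other group. With arrays grouped by the raw table's header GLB1 measured -0.22, CTSC 0.19 and LGMN -0.66, none past the test.

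The promoters of these genes can be read beside their values. RefSeq promoter windows (GRCh38.p14, 250 bases before to 50 after the gene's start) were matched for 35 of the 48 members, GLB1 and CTSC among them. The 150 bases before the start of both are shown because these members had the largest differences with a matched window. They lie on the minus strand, at chr3:33096823-33096972 for GLB1 and chr11:88337737-88337886 for CTSC, and are written 5′ to 3′ toward the gene with no base marked.
GLB1: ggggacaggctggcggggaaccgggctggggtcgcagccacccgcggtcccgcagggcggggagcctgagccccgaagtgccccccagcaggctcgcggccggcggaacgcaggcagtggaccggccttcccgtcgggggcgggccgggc
CTSC: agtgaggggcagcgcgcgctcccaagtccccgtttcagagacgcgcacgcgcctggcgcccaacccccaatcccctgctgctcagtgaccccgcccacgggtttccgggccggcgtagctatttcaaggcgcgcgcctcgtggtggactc

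The E-box that TFEB and its relatives bind was searched in 3 nested forms: the core CACGTG, TCACGTGA around it, and a long form with one more G before and one more C after. Each is its own reverse complement and so is read on both strands at once. The core was found in 9 of 35 member windows, or 25.7%, and in 7.43% of 27305 windows of all genes. TCACGTGA was found in 6 member windows, or 17.1%, against 1.04% of all, and the long form in 3, or 8.57%, against 0.381%. None of the 3 forms was in the windows of GLB1, CTSC or GUSB, which says only that these letters are not there. The stretches below show the longer forms that lie wholly before the start, with the motif in capitals and 12 bases on each side where the window allows.
GAA, upstream copy: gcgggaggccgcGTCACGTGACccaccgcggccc
GAA, downstream copy: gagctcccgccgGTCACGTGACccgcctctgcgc
GALNS: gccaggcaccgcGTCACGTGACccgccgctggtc
MCOLN1, upstream copy: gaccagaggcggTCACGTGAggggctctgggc
MCOLN1, downstream copy: ctgggctaccggGTCACGTGACcgaggc
CTSA: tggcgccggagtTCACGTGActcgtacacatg
LAMP1: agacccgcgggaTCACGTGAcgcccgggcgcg

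In that order, the stretches are at chr17:80101491-80101524 and chr17:80101536-80101569 on the plus strand for GAA, chr16:88857102-88857135 on the minus strand for GALNS, chr19:7522570-7522601 and chr19:7522596-7522623 on the plus strand for MCOLN1, chr20:45891297-45891328 on the plus strand for CTSA, and chr13:113297198-113297229 on the plus strand for LAMP1. The core began at position -76 and -31 from the start in GAA, -174 in GALNS, -41 and -14 in MCOLN1, -25 in CTSA and -28 in LAMP1, where -1 is the last base before the gene. The LAMP1 window held 6 copies of the core. Of the 8 tested members whose window holds the core, 5 measured higher and 3 lower in mH2A1.2_KO, with a median log2 difference of 0.10 and a range of -0.37 to 0.27. Of the 24 tested members with a window and no core, 11 measured higher and 13 lower, with a median of -0.0078 and a range of -1.26 to 0.36. The range without the core holds GLB1 and CTSC, known to be among the lowest genes when the members were chosen. Comparing these ranges therefore decides nothing about the motif.

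**Figure D2:**
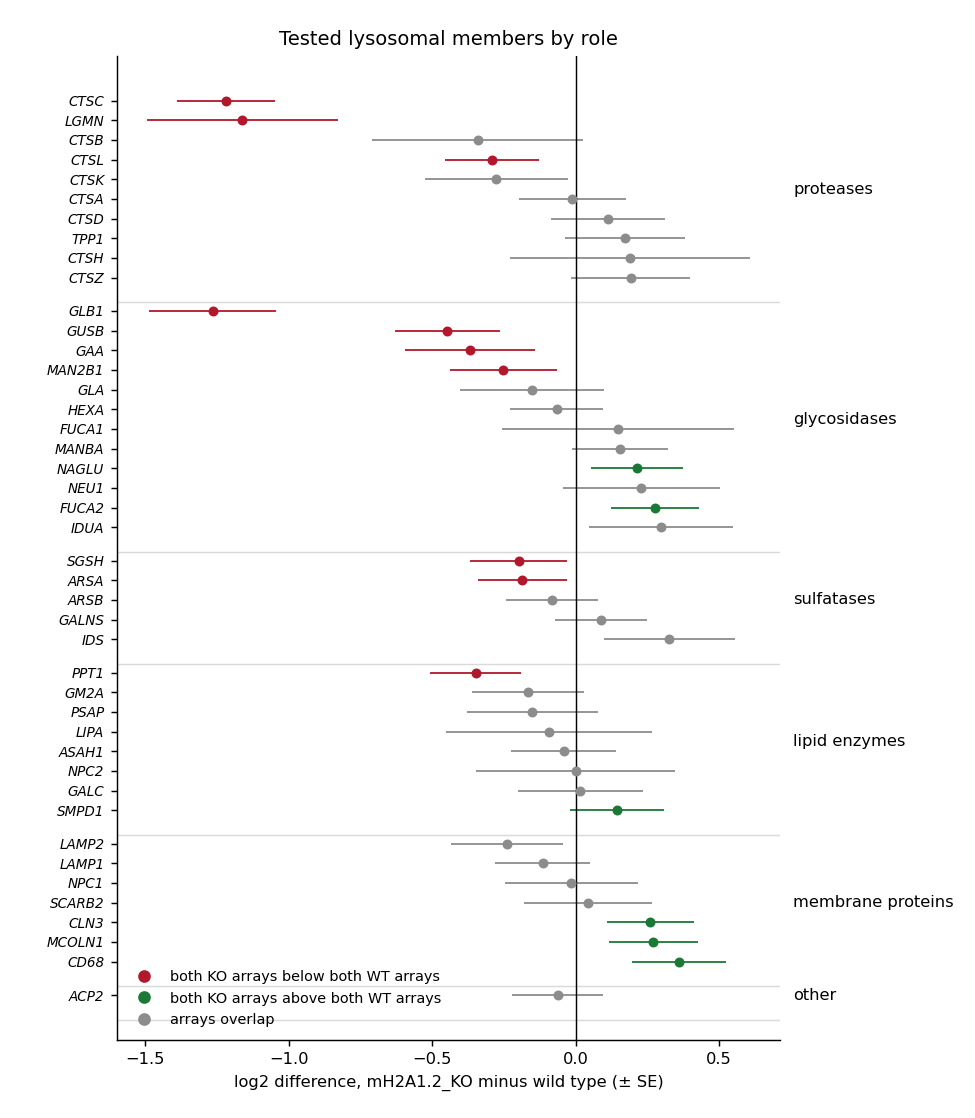
Log2 difference, mH2A1.2_KO minus wild type, of each of the 43 tested members with its SE, grouped by role. CTSC, LGMN and GLB1 lie below -1, and the other 40 members lie between -0.45 and 0.36.

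Among the 10 tested proteases, 6 measured lower and 4 higher in mH2A1.2_KO, with a median log2 difference of -0.14. Besides CTSC and LGMN, CTSL had arrays that did not overlap. CTSL encodes cathepsin L, an endopeptidase with broad specificity, and measured 13.21 and 13.04 in mH2A1.2_KO against 13.49 and 13.34 in wild type (-0.29 ± 0.16, limma adjusted p = 0.8). Its other 2 probes gave -0.36 ± 0.17 and -0.60 ± 0.18, and both mH2A1.2_KO arrays were below both wild type arrays for each of the 3 probes. CTSB, the endopeptidase and dipeptidyl carboxypeptidase cathepsin B, measured 11.10 and 11.22 in mH2A1.2_KO and 12.08 and 10.92 in wild type (-0.34 ± 0.37). The wild type arrays lay on either side of the mH2A1.2_KO arrays, and its second probe showed the same order with -0.38 ± 0.38.

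CTSK, the collagenase cathepsin K, measured 8.21 and 8.04 in mH2A1.2_KO and 8.74 and 8.07 in wild type, with overlapping arrays (-0.28 ± 0.25). CTSH, an aminopeptidase, measured 0.19 ± 0.42 and CTSZ, a carboxypeptidase, 0.19 ± 0.21. CTSD, the aspartic cathepsin, measured 0.11 ± 0.20, and TPP1, the tripeptidyl peptidase lost in a childhood form of neuronal ceroid lipofuscinosis, 0.17 ± 0.21. CTSA, which protects GLB1 and NEU1 in a complex, measured 10.31 and 10.58 in mH2A1.2_KO and 10.59 and 10.32 in wild type. The groups had nearly the same range there, and the difference was -0.012 ± 0.186. Of the members named for that complex, GLB1 was the one whose groups did not overlap.

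Among the 12 tested glycosidases, 6 measured lower and 6 higher, with a median of 0.041. GUSB, the beta-glucuronidase that acts on heparan, dermatan and chondroitin sulfate, measured 10.22 and 10.30 in mH2A1.2_KO and 10.88 and 10.54 in wild type. Its groups did not overlap, and the difference was -0.45 ± 0.18, or 1.36-fold (limma adjusted p = 0.645). GAA, the glycogen-degrading alpha-glucosidase, measured 7.85 on both mH2A1.2_KO arrays against 8.51 and 7.93 in wild type (-0.37 ± 0.23), and its second probe overlapped between groups (-0.10 ± 0.25). MAN2B1, an alpha-mannosidase, measured 7.84 and 7.76 in mH2A1.2_KO against 8.23 and 7.87 in wild type (-0.25 ± 0.19). For GAA and MAN2B1 the gap to wild type replicate 2 was small, and the values without wild type replicate 1 were -0.08 and -0.07.

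NAGLU, an enzyme of heparan sulfate breakdown, measured 9.24 and 9.08 in mH2A1.2_KO against 8.99 and 8.90 in wild type (0.21 ± 0.16). FUCA2, a fucosidase, measured 9.27 and 9.29 in mH2A1.2_KO against 8.98 and 9.03 in wild type (0.28 ± 0.15). Both stood higher in mH2A1.2_KO without overlap, though the second FUCA2 probe overlapped and gave -0.08 ± 0.19. The other glycosidases had overlapping arrays: IDUA, the alpha-iduronidase (0.30 ± 0.25, above background on 1 of the 2 wild type arrays), the sialidase NEU1 (0.23 ± 0.27), the beta-mannosidase MANBA (0.15 ± 0.17), the fucosidase FUCA1 (0.15 ± 0.40), the beta-hexosaminidase subunit HEXA (-0.07 ± 0.16) and the alpha-galactosidase GLA (-0.15 ± 0.25). The other 11 glycosidases ran from -0.45 to 0.30, beside -1.26 for GLB1. That gap is no independent result, since GLB1 was known to be among the lowest genes when the members were chosen.

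The 5 sulfatases, which remove sulfate groups from glycosaminoglycans and sulfatide, ran from -0.20 to 0.33 with a median of -0.082. SGSH, which acts on heparan sulfate, measured 9.95 and 10.21 in mH2A1.2_KO and 10.27 and 10.28 in wild type (-0.20 ± 0.17). ARSA, the arylsulfatase of sulfatide, measured 7.58 and 7.65 in mH2A1.2_KO against 7.85 and 7.74 in wild type (-0.19 ± 0.16). Both were lower without overlap, though the SGSH difference was smaller than the gap of 0.26 between its own mH2A1.2_KO arrays. The second ARSA probe overlapped between groups (-0.13 ± 0.17). IDS, the iduronate sulfatase, measured 8.93 and 9.25 in mH2A1.2_KO and 8.51 and 9.02 in wild type. Its arrays overlapped, with a difference of 0.33 ± 0.23 that was 0.070 without wild type replicate 1 and 0.58 without wild type replicate 2, while its second probe, annotated to another transcript, gave 9.004 and 9.33 in mH2A1.2_KO against 7.90 and 8.81 in wild type and did not overlap (0.81 ± 0.31, limma adjusted p = 0.63 among all detected probes). ARSB, which acts on dermatan sulfate, overlapped by its brightest probe (-0.08 ± 0.16) and was lower without overlap by its second (-0.30 ± 0.16). GALNS, which acts on keratan sulfate, overlapped (0.09 ± 0.16).

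The 8 lipid enzymes, activators and carriers ran from -0.35 to 0.14, with a median of -0.067. PPT1, the thioesterase that removes palmitate from proteins, measured 11.22 and 11.37 in mH2A1.2_KO and 11.61 and 11.69 in wild type. The arrays of each group were close and did not overlap, and the difference was -0.35 ± 0.16, or 1.27-fold (limma adjusted p = 0.702). SMPD1, acid sphingomyelinase, was higher without overlap, at 6.75 and 6.81 in mH2A1.2_KO against 6.54 and 6.74 in wild type (0.14 ± 0.16), and only 1 of the 2 wild type arrays was above background. A second SMPD1 probe was not above background on either wild type array. It passed the filter only through the mH2A1.2_KO arrays, so its direction is no support for a difference. Its means were 6.80 in mH2A1.2_KO and 6.41 in wild type (0.39 ± 0.16, adjusted p = 0.656 in the limma fit of all detected probes).

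GM2A, the activator that presents gangliosides to hexosaminidase, measured 7.94 and 7.91 in mH2A1.2_KO and 8.30 and 7.88 in wild type, with overlap (-0.17 ± 0.19). The remaining lipid members also overlapped. PSAP, the precursor of the saposins, measured -0.15 ± 0.23, the acid lipase LIPA -0.09 ± 0.36 and the ceramidase ASAH1 -0.04 ± 0.18. GALC, the galactosylceramidase, measured 0.016 ± 0.217 and the cholesterol carrier NPC2 -0.00069 ± 0.345.

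The 7 tested membrane proteins ran from -0.24 to 0.36, with a median of 0.043, and 3 were higher in mH2A1.2_KO without overlap while 0 were lower, beside 17.1% higher and 18.7% lower over all features. CD68, a heavily glycosylated lysosomal protein used as a macrophage marker, measured 10.21 and 10.32 in mH2A1.2_KO and 9.81 and 9.9996 in wild type (0.36 ± 0.16, limma adjusted p = 0.702). Its other probes gave 0.40 ± 0.20 and 0.17 ± 0.18, the last with overlap. MCOLN1, the lysosomal calcium channel mucolipin, measured 7.98 and 8.001 in mH2A1.2_KO against 7.65 and 7.78 in wild type (0.27 ± 0.16, limma adjusted p = 0.81). CLN3, a transmembrane protein lost in juvenile neuronal ceroid lipofuscinosis, measured 8.48 and 8.499 in mH2A1.2_KO against 8.22 and 8.23 in wild type (0.26 ± 0.15). The second CLN3 probe overlapped, at 7.78 and 8.04 in mH2A1.2_KO and 7.59 and 7.93 in wild type (0.15 ± 0.20).

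LAMP1 and LAMP2, the main glycoproteins of the lysosomal membrane, measured -0.11 ± 0.17 and -0.24 ± 0.20. The 5 detected LAMP2 probes disagreed in sign. The brightest, annotated to the LAMP2B transcript, gave 9.87 and 9.73 in mH2A1.2_KO and 10.25 and 9.83 in wild type. The other LAMP2B probes gave -0.40 ± 0.20, lower without overlap, and 0.23 ± 0.19, with overlap. The 2 probes annotated to LAMP2A, the form used in chaperone-mediated autophagy, gave 0.21 ± 0.20 and 0.46 ± 0.20, without overlap for the larger difference. No direction is therefore given for LAMP2. NPC1, the cholesterol exporter, measured -0.015 ± 0.232 and SCARB2, the receptor that carries glucocerebrosidase to the lysosome, 0.043 ± 0.221. ACP2, the lysosomal acid phosphatase, measured 8.75 and 8.83 in mH2A1.2_KO and 8.93 and 8.78 in wild type (-0.062 ± 0.159).

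**Figure D3:**
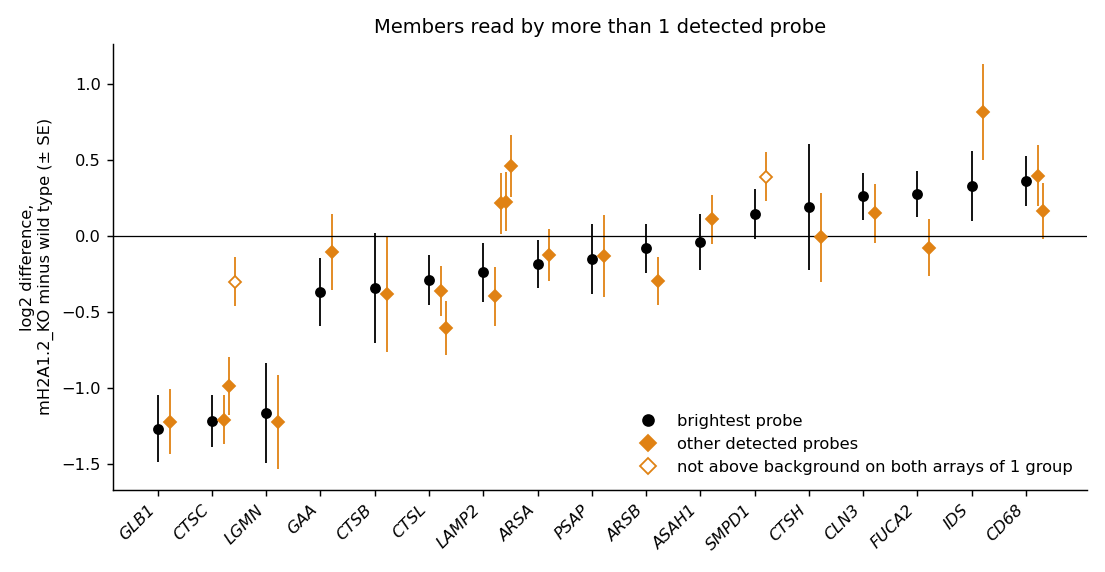
Log2 difference, mH2A1.2_KO minus wild type, of each detected probe (± SE) for the 17 members read by more than 1 detected probe, in order of the brightest probe. The GLB1 and LGMN probes lie together near -1.2, the CTSC probes run from -1.22 to -0.30, and those of LAMP2 lie on both sides of 0.

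In all, 10 members or 23.3% were lower without overlap, beside 18.7% of all features, and 6 or 14% were higher, beside 17.1% (35.8% of all features in either direction). These shares were near the background. The lower ones were CTSC, LGMN, CTSL, GLB1, GUSB, GAA, MAN2B1, SGSH, ARSA and PPT1. The higher ones were NAGLU, FUCA2, SMPD1, CD68, CLN3 and MCOLN1. The difference between roles was not tested, and the medians of the 5 roles lay between -0.14 and 0.043. All 5 medians except that of the sulfatases were above 0 without wild type replicate 1, at 0.16 for proteases, 0.14 for glycosidases, 0.081 for lipid enzymes, 0.24 for membrane proteins and -0.13 for sulfatases. Without wild type replicate 2 they were -0.40 for proteases, -0.14 for glycosidases, -0.35 for lipid enzymes, -0.20 for membrane proteins and 0.0072 for sulfatases.

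For most members, as for most features, the wild type arrays were further apart than the groups. Wild type replicate 1 exceeded replicate 2 for 30 of 43 members, or 69.8%, beside 49.3% of all features. The median log2 difference, replicate 1 minus replicate 2, was 0.24 over all 43 members and -0.0055 over all features. Wild type replicate 1 exceeded replicate 2 by at least 0.5 for 13 members, or 30.2%, beside 10.3% of all features. The mH2A1.2_KO arrays were nearer each other, with a median absolute gap of 0.16 over the members against 0.34 for the wild type arrays. Over all features these gaps were 0.17 and 0.24. In mH2A1.2_KO replicate 1 was above replicate 2 for 24 of 43 members, or 55.8%, beside 49.1% of all features. The median difference over all 43 members was 0.050. For 29 members the 2 wild type arrays differed from each other by more than the groups did, a share of 67.4% where it was 64.7% over all features. Single arrays vary more than means of 2 arrays, so such a share alone does not measure excess wild type spread. By role, the median difference between the wild type arrays was 0.45 for lipid enzymes, 0.37 for proteases, 0.35 for glycosidases, 0.23 for membrane proteins and -0.15 for sulfatases. Between the mH2A1.2_KO arrays this median was 0.28, 0.17, 0.032, 0.050 and -0.072 in the same order of roles. The sign was thus the same in both groups for each of these roles.

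**Figure D4:**
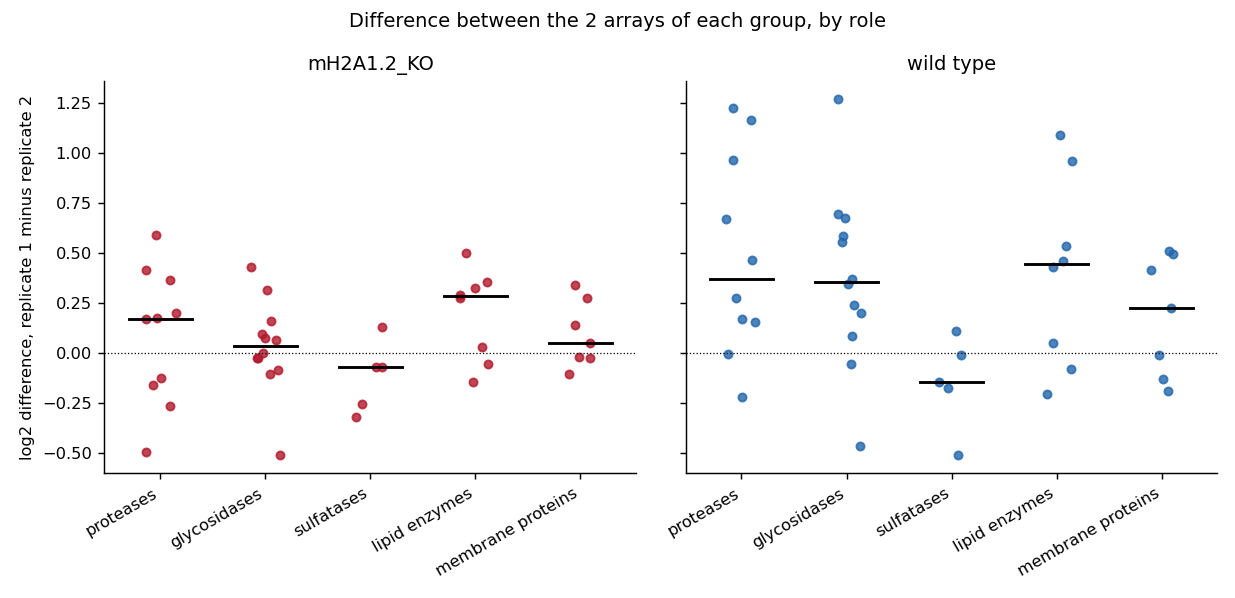
Log2 difference between the 2 arrays of each group (replicate 1 minus replicate 2) for tested members of 5 roles, mH2A1.2_KO left and wild type right; points are members and lines are medians. In wild type, proteases, glycosidases and lipid enzymes have members above 0.9, and all sulfatases lie between -0.51 and 0.11.

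The members with the widest wild type spread, chosen after their values were seen, were FUCA1, CTSH, CTSB, LIPA, LGMN and NPC2. FUCA1 measured 9.52 and 9.21 in mH2A1.2_KO and 9.85 and 8.58 in wild type. CTSH measured 10.58 and 9.99 in mH2A1.2_KO against 10.71 and 9.49 in wild type, and LIPA 10.97 and 10.64 in mH2A1.2_KO against 11.44 and 10.35 in wild type. NPC2, which exports cholesterol with NPC1, measured 13.51 and 13.01 in mH2A1.2_KO against 13.75 and 12.78 in wild type. In each of these 4 genes the mH2A1.2_KO arrays lay between the wild type arrays. The monocyte marker CD14 had the same order, at 8.69 and 8.27 in mH2A1.2_KO and 8.76 and 7.64 in wild type. AIF1, the other macrophage and osteoclast marker detected, measured 6.82 and 6.76 in mH2A1.2_KO and 6.54 and 6.97 in wild type. Its wild type replicate 1 thus lay below replicate 2. The part of either marker was not tested. Leaving out wild type replicate 1 gave 15 of 43 members lower in mH2A1.2_KO and a median of 0.070, while leaving out wild type replicate 2 gave 30 of 43 and a median of -0.205. Using only mH2A1.2_KO replicate 2 and wild type replicate 1, whose names the tables share, 32 of 43 members were lower in mH2A1.2_KO, with a median of -0.24. The direction of the members as a whole thus rested on which wild type array was used.

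Further genes of the lysosome were read from 6 lists, of which 95 of 118 genes were tested and 0 passed limma's test over all features. Of 16 further hydrolases and lumen proteins, 14 measured lower in mH2A1.2_KO, with a median of -0.13, where 52% of all features were lower. An unadjusted p under 0.05 was found for 3 of the 16, all lower, beside 3.35% of all features. CTSV, a cathepsin close to CTSL, measured 9.76 and 9.34 in mH2A1.2_KO against 10.59 and 9.90 in wild type (-0.70 ± 0.27). GGH, which trims folate polyglutamates, measured 10.70 on both mH2A1.2_KO arrays against 11.42 and 11.25 in wild type (-0.63 ± 0.16), and EPDR1 measured 11.48 and 11.64 in mH2A1.2_KO against 11.91 and 12.12 in wild type (-0.46 ± 0.17). In these 3 genes the groups did not overlap. In the whole list 5 of 16 genes were lower without overlap, beside 18.7% of all features, and 0 were higher, beside 17.1%. In the same list wild type replicate 1 exceeded replicate 2 for 14 of 16 genes, and the median difference over all 16 was 0.55. That gap is larger than the list's median of -0.13 in size. How far the direction of this list rested on wild type replicate 1 was not tested.

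Among 19 further membrane proteins and transporters, 10 measured higher and 9 lower, with a median of 0.039. SLC11A2, a metal ion transporter, measured -0.63 ± 0.16, with 9.20 and 9.30 in mH2A1.2_KO against 9.94 and 9.82 in wild type. LAPTM4A (0.62 ± 0.15) and LITAF (0.54 ± 0.22) measured higher. The sialomucin CD164 was not above background on either wild type array. It passed the filter only through the mH2A1.2_KO arrays, so its direction is no support for a difference. Its means were 6.83 in mH2A1.2_KO and 6.37 in wild type (0.46 ± 0.16, limma adjusted p = 0.576). The direction in this list was mixed, as it was for the V-ATPase, the proton pump that acidifies the lysosome. Of 16 V-ATPase subunits 8 measured higher and 8 lower (median -0.033), among them ATP6V1D (0.49 ± 0.17) and ATP6V0D1 (0.44 ± 0.17).

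Of 13 genes listed for mannose phosphate tagging and sorting, 6 measured higher and 7 lower (median -0.021). SUMF1 was placed in this list, though its product makes the catalytic residue of all sulfatases. It measured 9.36 and 9.03 in mH2A1.2_KO against 8.48 and 8.63 in wild type (0.64 ± 0.18, limma adjusted p = 0.493). No other gene of the list had an unadjusted limma p under 0.05. Of 28 genes of the TFEB relatives, mTORC1 docking and autophagy, 16 measured higher and 12 lower (median 0.046). There MITF, a relative of TFEB, measured 8.28 and 8.06 in mH2A1.2_KO against 7.55 and 7.56 in wild type (0.61 ± 0.16), the GTPase RRAGD 0.49 ± 0.19 and the tethering factor subunit VPS18 0.63 ± 0.20. Only 3 cystatins and other inhibitors were detected. CST6, cystatin M, an inhibitor of cathepsins L and V and of legumain, measured 8.93 and 8.59 in mH2A1.2_KO against 8.04 and 7.49 in wild type, a difference of 0.999 ± 0.239 (limma adjusted p = 0.43). CSTB measured 0.24 and CST3, cystatin C, -0.17.

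**Figure D5:**
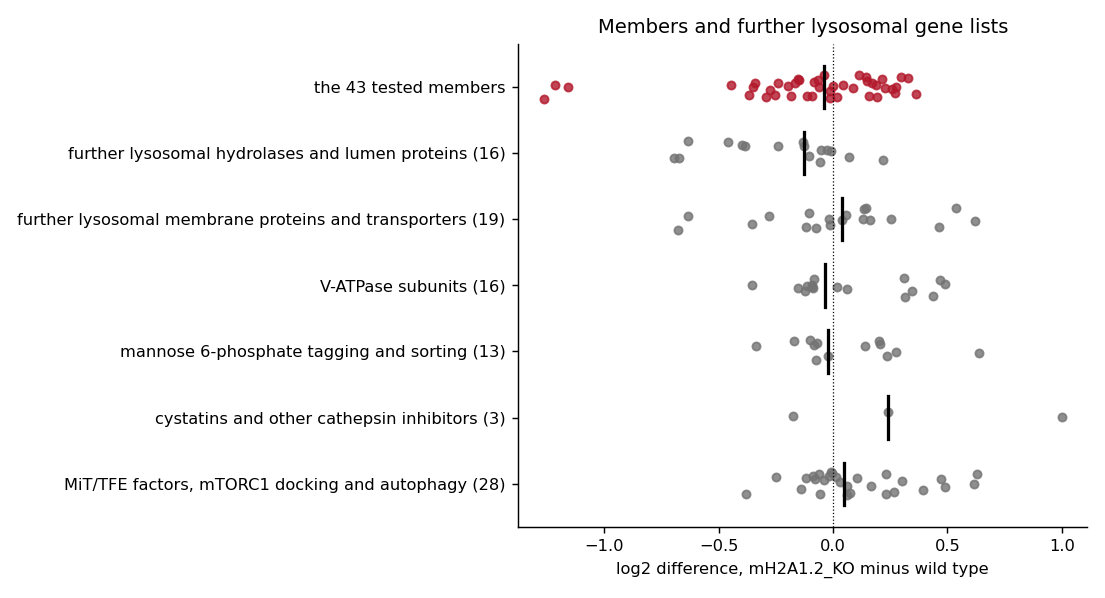
Log2 difference, mH2A1.2_KO minus wild type, of the 43 tested members (red) and of the tested genes of 6 further lysosomal lists (grey, number tested in parentheses); black lines are medians. GLB1, CTSC and LGMN lie below -1, and 14 of the 16 further hydrolases and lumen proteins lie below 0.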

How the data were processed

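Per the labels' protocols, column-purified RNA was copied into biotin-labelled cRNA and read in 1 colour on Illumina arrays. GenomeStudio is the tool in the submitters' processing notes. The authors deposited raw intensity for 47230 probes and, in the same deposited table, the detection p-value of each. The authors also deposited normalized values, read from their range as log2, for 43893 probes by a method not given in the sources used here. Over 8096 bright probes, each raw array followed 1 normalized column (correlation of each probe's log2 values centred over the arrays at least 0.9969, the next highest 0.0235), and this placed 2 arrays otherwise than the raw header. Detection p-values were carried along that match.

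Normalized values were quantile normalized across the 4 arrays. The 16950 detected probes gave 13786 features, with the brightest probe per gene. Of the probes with values 29471 had 1 symbol, 0 several and 14422 none here. The comparison used lmFit and eBayes of limma 3.58.1 under R 4.3.3 (two-sided, 2 residual and 4.1 prior degrees of freedom, Benjamini-Hochberg over all features, threshold 0.05). The number of arrays limits the precision.

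Per-array values were given for members with an unadjusted p under 0.05, a log2 difference of 0.5 or more, or among the 2 largest differences of a role. Values of CTSA, CTSB, CTSK, CTSL, CTSH, GAA, MAN2B1, NAGLU, FUCA1, FUCA2, ARSA, SMPD1, CLN3, LAMP2, LIPA and NPC2 were added after they were seen. Pathway genes were named at an unadjusted p under 0.05, with CSTB and CST3 added. Members and lists were chosen with earlier results of these data known. Alternatives covered normalization, filter, probe choice, array naming, a replicate block and each array left out.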

Additional observations from a re-analysis of the deposited data

How the results depend on the processing

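No feature was called by limma with the values as deposited, with neqc on the raw signals, with probes detected on all 4 arrays, with the median over probes or grouped by the raw table's header. The count was 2 with no detection filter, 0 to 156 when 1 array was left out (57 without wild type replicate 1, 156 without wild type replicate 2) and 425 with a replicate block. The labels do not say that the replicate numbers pair the arrays. The deviations of same-numbered arrays correlated at 0.575 over all features and at 0.641 over the tested members, which with 2 pairs settles no pairing. With the replicate block CTSC, GLB1 and LGMN had adjusted p-values of 0.00354, 0.0079 and 0.00924. The members' median, -0.042, ran from -0.205 to 0.070 when 1 array was left out and was -0.24 with only the 2 arrays whose names the tables share. With 1 array left out, 12 to 27 of 43 members were lower without overlap, beside 30.9% to 38.7% of all features. Fewer arrays make overlap rarer. Higher members numbered 8 to 20, with 20 of 43 without wild type replicate 1. No share of all features is given for the higher direction here. Whether these counts exceed that of all features was therefore not tested, and they give no direction for the members. Grouping by the raw header gave 18 of 43 lower without overlap, beside 22.8% of all features. Under that grouping CTSC measured 0.19, SGSH 0.13 and PPT1 0.11, and 2 MACROH2A1 probes 0.027 and -0.45, each in the other direction. Without wild type replicate 1, GM2A and ACP2 also reversed: with 1 array left out GM2A ran from -0.38 to 0.047 and ACP2 from -0.14 to 0.011. The cause was not tested. Signal near background limits SMPD1, IDUA and the fourth CTSC probe.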
